A study of Mus musculus with 11 samples.

Results

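The Fc receptor genes of tumor cDC1s were examined across genotypes that remove XBP1s alone or together with the RNase domain of IRE1. They comprise Fcrla, the activating receptors Fcgr1, Fcgr3 and Fcgr4, the inhibitory receptor Fcgr2b, the common signaling chain Fcer1g and the neonatal receptor gene Fcgrt. These 7 genes were taken by name from the 24421 genes counted, and all 7 were among the 10951 genes that passed the filter on low counts. The set was chosen by name around Fcrla, which was selected on its measured counts in these comparisons, so its values are a description and carry no test. The other 6 genes were tested within the fit of all genes.

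Type 1 conventional dendritic cells (cDC1s) are dendritic cells specialized in cross-presentation of cell-associated antigen to CD8+ T cells. They were sorted from B16-F10 melanoma tumors, a C57BL/6 mouse melanoma line, 10 to 15 days after implantation. Each of the 11 RNA-seq libraries came from a separate pool of 2 to 4 mice of 1 genotype on the C57BL/6 background, 6 to 14 weeks old, and 5000 to 20000 sorted cells per pool.

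The control group had 4 pools without Cre, of which replicates 1 to 3 were XBP1 fl/fl and replicate 4 was XBP1 fl/fl, IRE1 fl/fl. The XBP1ΔDC group added CD11c-CRE to XBP1 fl/fl and had 4 pools. The XBP1ΔDCIRE1truncDC group carried CD11c-CRE with both XBP1 fl/fl and IRE1 fl/fl and had 3. Every group therefore carried floxed Xbp1 alleles, and only control replicate 4 carried floxed Ern1 without recombination. Cre was driven by the Itgax (CD11c) promoter, so recombination was not limited to cDC1s and extended to other CD11c+ cells of the mice. It removes exon 2 of Xbp1, and exons 20 and 21 of Ern1, which leaves a truncated IRE1 without RNase activity.

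Fc receptors bind the constant part of antibodies. Activating Fc gamma receptors signal through the ITAM motif of the common chain FcRγ (Fcer1g), while FcγRIIB (Fcgr2b) carries an inhibitory ITIM, and FcRn (Fcgrt) binds IgG in acidic endosomes and returns it to the cell surface. Fcrla encodes a relative of these receptors that stays inside the cell, in the endoplasmic reticulum (ER), where it binds immunoglobulin, and it is known mainly from B cells. IRE1 is an ER stress sensor whose RNase splices Xbp1 mRNA, and it can also cleave other ER-bound mRNAs, a process called RIDD (regulated IRE1-dependent decay). Loss of XBP1s in dendritic cells is known to raise IRE1 activity.

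The libraries held 21089065 to 26843486 counts, at which 3 counts corresponded to 0.111 to 0.140 CPM (counts scaled to a library of 1000000), and all levels below are CPM after TMM scaling unless given per kb. Xbp1 averaged 255 ± 11.5 CPM (SD, n = 4) in control, 152 ± 15.8 (SD, n = 4) in XBP1ΔDC and 209 ± 28.7 (SD, n = 3) in XBP1ΔDCIRE1truncDC pools. It was lower in every XBP1ΔDC pool than in every control pool (edgeR quasi-likelihood test, log2 fold change -0.74, SE 0.0973, adjusted p = 0.00167), although counts per gene also include transcripts that lack the floxed exon. In every XBP1ΔDCIRE1truncDC pool Xbp1 was below every control pool (log2 fold change -0.28, adjusted p = 0.324, edgeR). It was above every XBP1ΔDC pool (0.46, adjusted p = 0.233, edgeR). Ern1 ranged from 9.74 to 26.0 CPM and passed the test in no comparison (lowest adjusted p = 0.322, edgeR). It was higher in every XBP1ΔDCIRE1truncDC pool than in every XBP1ΔDC pool, with a log2 fold change of 0.79 (SE 0.228, adjusted p = 0.491, edgeR), and overlapped control. Such an order against XBP1ΔDC held for 3.11% of tested genes. Counts over the whole gene do not separate the truncated transcript. The 15 cDC1 markers were all detected, among them Xcr1 at 846 CPM and Irf8 at 4118 CPM in control. Their summed level was 14872 to 16258 CPM in control, 12704 to 14112 in XBP1ΔDC and 13433 to 14445 in XBP1ΔDCIRE1truncDC pools. The ranges of both deficient groups lay below that of control. Naaa, a lysosomal amidase and the most abundant of the 15 markers in control, was the only one past an adjusted p of 0.05. Its log2 fold change was -0.51 (SE 0.0555, adjusted p = 4.95e-04, edgeR) in XBP1ΔDC and -0.33 (SE 0.0602, adjusted p = 0.0396, edgeR) in XBP1ΔDCIRE1truncDC against control. Of the 15 markers, 11 had a log2 fold change below 0 in XBP1ΔDC against control and 10 in XBP1ΔDCIRE1truncDC against control. At an unadjusted p under 0.05 the edgeR numbers were 2 and 6 of 15, beside 7.62% and 11.2% of all tested genes. In XBP1ΔDCIRE1truncDC against XBP1ΔDC the number was 3, beside 5.29%.

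Fcrla was low in the genotype that lacks XBP1s but keeps the IRE1 RNase, and its mRNA was therefore searched for the loop letters that IRE1 cuts in Xbp1 mRNA. The RNase cuts Xbp1 at a pair of loops, each of 7 bases held by a short stem, and the loops fit the letters CNGCAGN on the sense strand. The sites below are those of Xbp1 with a stem and those of Fcrla, read from GENCODE vM21 transcripts (GRCm38) 5′ to 3′ with 10 bases on each side, with the 7 loop letters in capitals.
Xbp1 site 1: tctgctgagtCCGCAGCactcagacta
Xbp1 site 2: atgtgcacctCTGCAGCaggtgcaggc
Fcrla site 1: ggcactaccaCTGCAGTggcatcttca
Fcrla site 2: aaagctggccCTGCAGAggtcagcttc

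The Xbp1 sites, at chr11:5524266-5524292 and chr11:5524292-5524318 on the plus strand, both in coding exon 4, had stems of 6 and 7 Watson-Crick pairs directly flanking the loop. The Fcrla sites lay in coding sequence on the minus strand, in exon 3 at chr1:170921575-170921601 and in exon 4 at chr1:170921010-170921036, with 0 and 2 such pairs. The count at Fcrla site 2 stopped at a G-U pair, which RNA stems allow, and with G-U pairs counted this site had a stem of 9 pairs, 1 of them G-U, while the Xbp1 stems stayed at 6 and 7. Under a minimum of 4 pairs the number of loops in Fcrla was therefore 0 with Watson-Crick pairs alone and 1 with G-U pairs allowed, a setting chosen after seeing the data. Xbp1 had 2 loops and each of the other 6 receptor genes had 0 under both settings, although Fcgr1 held 8 matches of the letters alone. With Watson-Crick pairs alone such a loop was present in 376 of the 10328 tested genes with an annotated transcript (3.64%), and in 34 of 1499 (2.27%) within 20% of the length of the 1679-base Fcrla transcript. With G-U pairs allowed these numbers were 1477 (14.3%) and 117 (7.81%), and a stem of at least the 9 pairs of Fcrla was found in 13 of the 10328 genes (0.126%), Fcrla included. This cutoff of 9 pairs was taken from Fcrla itself, so the share is a description and carries no test. A match is a description of the letters and not a measured cut. The search found 0 loops in Bloc1s1, a standard RIDD target, under both settings, so absence of the match says only that these letters with this stem are not in the transcript.

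In control cDC1s the receptor genes covered more than 2 orders of magnitude when counts were divided by exon length, which allows levels of different genes to be compared. Fcgrt had 161 ± 10.6 CPM per kb (SD, n = 4) and Fcer1g 136 ± 19.7 (SD, n = 4), and the pools of these genes overlapped. Fcrla at 35.8 ± 3.86 CPM per kb (SD, n = 4) and Fcgr2b at 30.2 ± 2.28 (SD, n = 4) came next and also overlapped each other. Fcgr3 had 7.65 ± 4.06 CPM per kb (SD, n = 4) and Fcgr4 3.52 ± 1.86 (SD, n = 4), again with overlapping pools, and Fcgr1 was lowest at 0.521 ± 0.159 (SD, n = 4). In order, these levels stood above 97.6%, 97.1%, 86.7%, 84.6%, 56.5%, 37.3% and 8.31% of the tested genes. Per kb of union exon, Fcrla in control was therefore at the level of the inhibitory Fc gamma receptor and above all 3 activating ones. Its place beside Fcgr2b depends on the length used. For Fcgr2b the union of exons has 5790 bases and the longest coding transcript 3544, and for Fcrla these are 1745 and 1679. With transcript lengths Fcgr2b would stand above Fcrla in control, so the order of these genes is not settled.

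**Figure D1:**
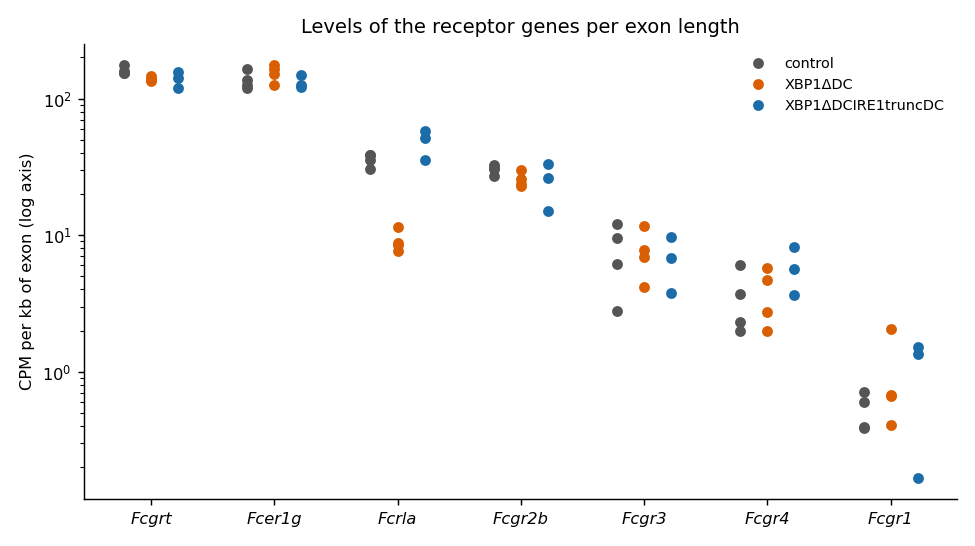
Levels of the 7 receptor genes per pool, in CPM per kb of exon on a log axis, ordered by the control mean, with control pools in gray, XBP1ΔDC in orange and XBP1ΔDCIRE1truncDC in blue. Per kb of union exon, Fcrla lies beside Fcgr2b in control at 35.8 and 30.2 CPM per kb, and its 4 XBP1ΔDC pools fall to between 7.68 and 11.5 CPM per kb.

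Fcrla was lower in XBP1ΔDC than in control cDC1s and was not lower when the IRE1 RNase domain was also missing. It was measured at 62.1, 53.1, 67.7 and 66.9 CPM in control pools 1 to 4, at 13.4, 20.1, 14.9 and 15.3 CPM in the XBP1ΔDC pools, and at 90.3, 61.4 and 101 CPM in the XBP1ΔDCIRE1truncDC pools. All XBP1ΔDC pools lay below all control pools and below all XBP1ΔDCIRE1truncDC pools, whereas the ranges of control and XBP1ΔDCIRE1truncDC pools overlapped. Of all tested genes, 3.67% had every XBP1ΔDC pool below every control pool and 3.11% had every XBP1ΔDCIRE1truncDC pool above every XBP1ΔDC pool, figures that the choice of Fcrla had used. The highest XBP1ΔDC pool, with 439 counts, was still well under the lowest control pool, with 1433 counts.

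In the fit of all genes the log2 fold change of Fcrla was -1.97 (SE 0.167) in XBP1ΔDC against control, a level 3.93-fold lower. It was 2.40 (SE 0.176) in XBP1ΔDCIRE1truncDC against XBP1ΔDC, a level 5.29-fold higher, and 0.43 (SE 0.170) in XBP1ΔDCIRE1truncDC against control, or 1.35-fold. These comparisons share pools, of XBP1ΔDC or of control, and are not independent of each other. Among the 10951 tested genes, 21 had a larger log2 fold change in either direction in XBP1ΔDC against control, and 22 in XBP1ΔDCIRE1truncDC against XBP1ΔDC. Differentially expressed genes (DEG; Benjamini-Hochberg p below 0.05 with more than a 1.5-fold difference) made up 0.493%, 0.21% and 0.0731% of tested genes in XBP1ΔDC against control, XBP1ΔDCIRE1truncDC against control, and XBP1ΔDCIRE1truncDC against XBP1ΔDC. In bulk pools, fewer cells with the transcript and less transcript per cell cannot be told apart.

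**Figure D2:**
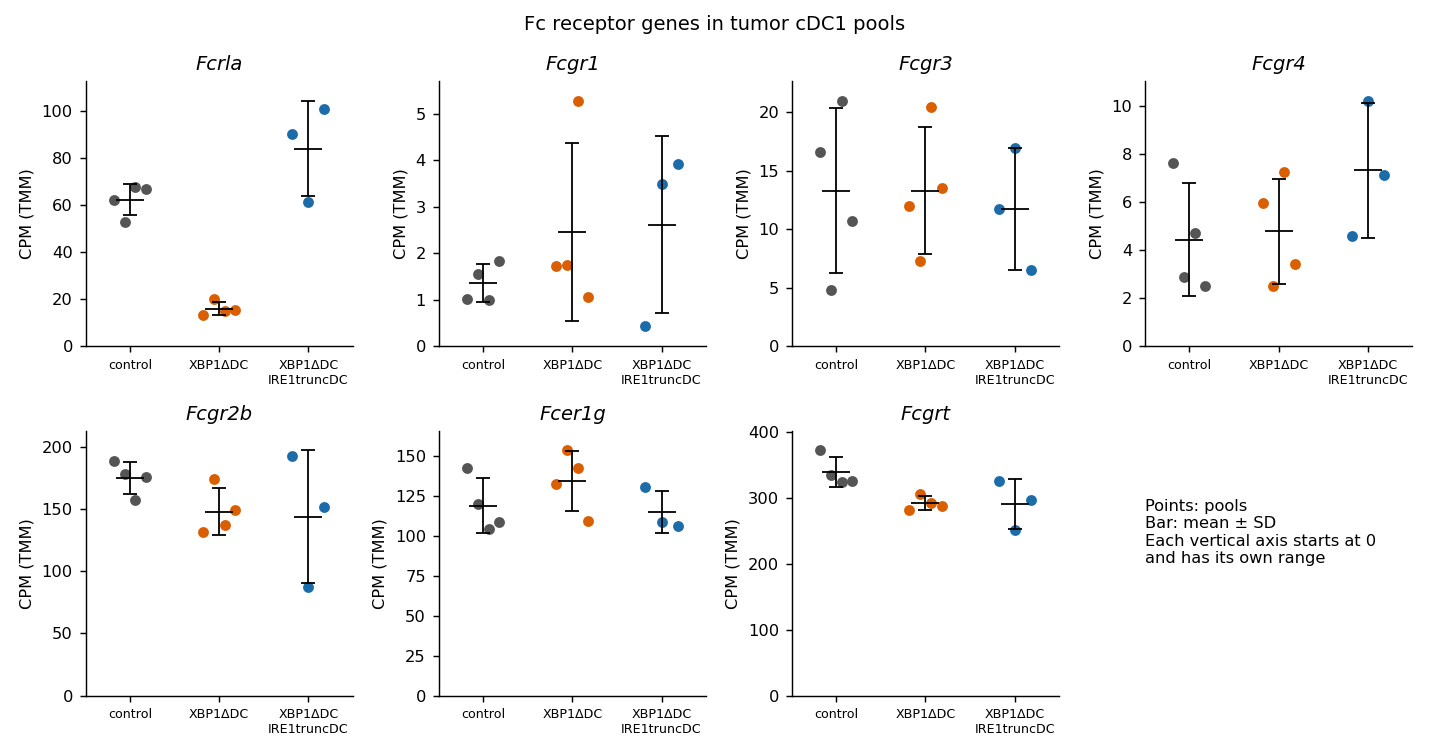
CPM after TMM scaling of each receptor gene in every pool, with the mean and SD per genotype and each vertical axis starting at 0. Only for Fcrla do the XBP1ΔDC pools (13.4 to 20.1 CPM) lie apart from both other groups, while for Fcgrt they lie apart from control alone.

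Fcrla transcripts in mouse are known mainly from B cells, so B cell markers were read in the same pools. The authors also cite Fcrla as a member of a BATF3/IRF8 gene program of cDC1s. Of the 15 B and plasma cell markers in the list 12 were counted, and Pax5 and Jchain were among those with 0 counts in all 11 pools. The 12 genes together reached 4.85 to 13.1 CPM in control, 3.96 to 7.46 in XBP1ΔDC and 5.40 to 7.997 in XBP1ΔDCIRE1truncDC pools, with overlapping groups. The most abundant of them in control was Cd22, a B cell lectin, at 5.23 ± 2.80 CPM (SD, n = 4). Fcrla was read at 53.1 to 67.7 CPM in the same control pools, and the part of B cells in its level was not tested.

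The activating receptors were low and varied between pools of the same genotype. Fcgr1, the high-affinity IgG receptor, was read at 1.02, 1.56, 0.995 and 1.83 CPM in control, 1.72, 1.74, 5.28 and 1.05 in XBP1ΔDC, and 0.430, 3.49 and 3.91 in XBP1ΔDCIRE1truncDC pools. These levels rest on 11 to 138 counts per pool, the groups overlapped, and XBP1ΔDC replicate 3 was the highest of the 11 pools. Its log2 fold change was 0.86 (SE 0.642, adjusted p = 0.869, edgeR) in XBP1ΔDC and 0.95 (SE 0.684, adjusted p = 0.688, edgeR) in XBP1ΔDCIRE1truncDC against control. Without XBP1ΔDC replicate 3 the first value was 0.16, with the same absence of a call.

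Fcgr3, a low-affinity activating receptor, was read at 16.6, 4.81, 20.98 and 10.7 CPM in control, 12.002, 7.27, 20.4 and 13.5 in XBP1ΔDC, and 11.7, 17.0 and 6.52 in XBP1ΔDCIRE1truncDC pools. The lowest and the highest of the 11 pools were both controls, and the group means of 13.3, 13.3 and 11.7 CPM lay within the spread of each group. Of the 50-base windows of its transcript, 12.8% also occurred in another gene, each of them in Fcgr2b. Reads from these windows may be left uncounted or assigned to the other gene, and both counts are uncertain to that extent.

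Fcgr4, an activating receptor for IgG2 subclasses in the mouse, was read at 7.63, 2.89, 4.69 and 2.4995 CPM in control, 5.93, 2.51, 7.23 and 3.42 in XBP1ΔDC, and 4.57, 10.2 and 7.13 in XBP1ΔDCIRE1truncDC pools. The highest pool was XBP1ΔDCIRE1truncDC replicate 2, but the groups overlapped. The log2 fold change was 0.11 (SE 0.420) in XBP1ΔDC and 0.72 (SE 0.448) in XBP1ΔDCIRE1truncDC against control, with adjusted p = 0.988 and adjusted p = 0.617 (edgeR). The 95% interval of the latter, -0.25 to 1.69, includes both no difference and a rise of more than 2-fold.

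Fcgr2b, the only inhibitory Fc gamma receptor, was read at 189, 178, 157 and 176 CPM in control, 132, 174, 137 and 149 in XBP1ΔDC, and 193, 87.1 and 151 in XBP1ΔDCIRE1truncDC pools. Groups overlapped, and XBP1ΔDCIRE1truncDC pools held both the highest and the lowest value. The log2 fold change was -0.24 (SE 0.184, 95% interval -0.64 to 0.16) in XBP1ΔDC and -0.28 (SE 0.1998, 95% interval -0.72 to 0.15) in XBP1ΔDCIRE1truncDC against control. Of the windows of its 3544-base transcript, 12.5% also occurred in other genes, most often in Gm47409, and its exons overlap Gm38204, so its count carries the same uncertainty as that of Fcgr3.

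Fcer1g, the signaling chain that Fcgr1, Fcgr3 and Fcgr4 need at the surface, was read at 143, 120.2, 104 and 109 CPM in control, 133, 154, 143 and 109.5 in XBP1ΔDC, and 131, 109 and 107 in XBP1ΔDCIRE1truncDC pools. All 3 groups overlapped. The log2 fold changes were 0.18 (SE 0.123), -0.05 (SE 0.134) and -0.22 (SE 0.134) in XBP1ΔDC against control, XBP1ΔDCIRE1truncDC against control, and XBP1ΔDCIRE1truncDC against XBP1ΔDC, with a lowest adjusted p of 0.851 (edgeR).

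Fcgrt, whose product FcRn recycles IgG and takes part in the handling of immune complexes by dendritic cells, was read at 372, 335, 324 and 326 CPM in control, 282, 306, 292 and 287 in XBP1ΔDC, and 326, 251 and 297 in XBP1ΔDCIRE1truncDC pools. Every XBP1ΔDC pool lay below every control pool, the pattern of the same 3.67% of tested genes, and the XBP1ΔDCIRE1truncDC pools overlapped both groups. Its log2 fold change was -0.22 (SE 0.0833, adjusted p = 0.509, edgeR) in XBP1ΔDC and -0.22 (SE 0.0904, adjusted p = 0.379, edgeR) in XBP1ΔDCIRE1truncDC against control. Neither value passed the adjusted threshold, and the 95% interval in XBP1ΔDC of -0.40 to -0.04 keeps the difference below the 1.5-fold limit of a DEG.

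None of the 6 genes was called in any of the 3 comparisons. At an unadjusted p under 0.05 the numbers were 1, 1 and 0 of 6, beside 7.62%, 11.2% and 5.29% of all tested genes. DESeq2 and limma voom likewise called 0 of the 6 in each comparison. The difference between the change of Fcrla and that of the other genes was not tested, since Fcrla had been chosen for its values.

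**Figure D3:**
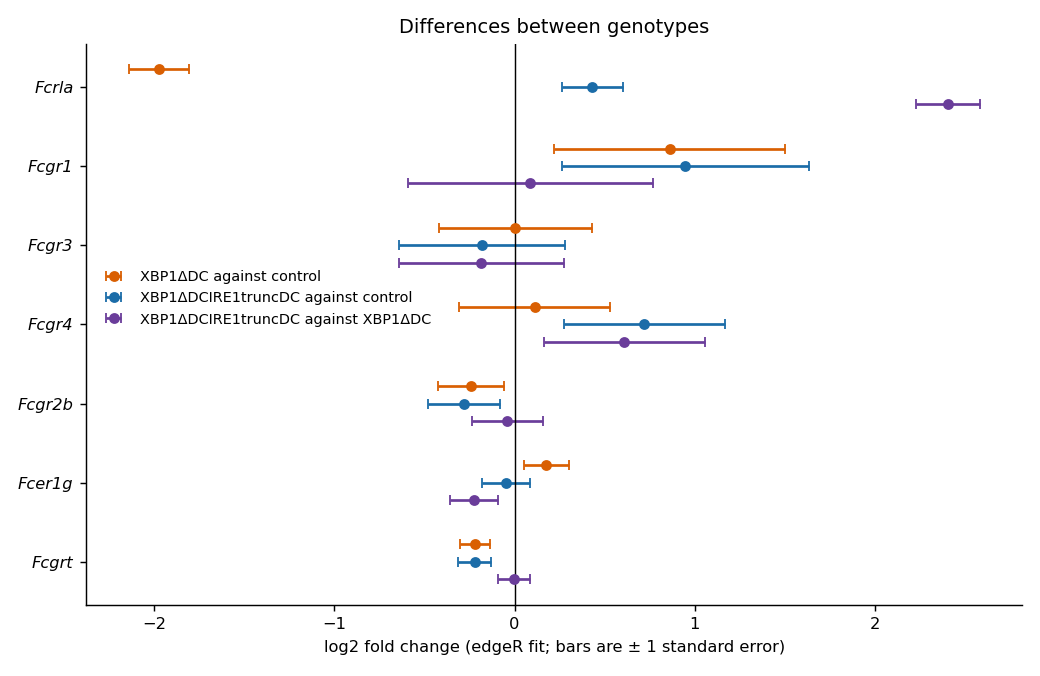
Log2 fold change of the 7 receptor genes in the 3 comparisons, with bars of 1 standard error from the edgeR fit. Fcrla lies at -1.97, 0.43 and 2.40, and the points of the other 6 genes lie between -0.28 and 0.95.

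Activating and inhibitory Fc gamma receptors compete for the same antibodies, so their ratio was formed per pool as the summed CPM per kb of Fcgr1, Fcgr3 and Fcgr4 over that of Fcgr2b. Its log2 value was -1.02, -2.44, -0.74 and -1.77 in control, -0.88, -2.13, -0.27 and -1.24 in XBP1ΔDC, and -1.66, 0.36 and -1.26 in XBP1ΔDCIRE1truncDC pools. The activating sum exceeded the inhibitory receptor only in XBP1ΔDCIRE1truncDC replicate 2, at 128 units per 100, and the groups overlapped. Whether a pool exceeds 100 depends on the 5790 bases of union exon taken for Fcgr2b, whose transcript has 3544. The log2 differences between pools do not depend on that length. The difference in means was 0.36 for XBP1ΔDC against control (means -1.13 ± 0.776, SD, n = 4, and -1.495 ± 0.766, SD, n = 4), with p = 0.543 and adjusted p = 0.714 by a two-sided exact permutation test. It was 0.64 for XBP1ΔDCIRE1truncDC against control (exact permutation p = 0.429, adjusted p = 0.714) and 0.28 for XBP1ΔDCIRE1truncDC against XBP1ΔDC (exact permutation p = 0.714, adjusted p = 0.714). The smallest p these designs allow is 0.0286, and p-values were adjusted over the 3 comparisons. The last difference turned to -0.33 without XBP1ΔDCIRE1truncDC replicate 2 and to -0.05 without XBP1ΔDC replicate 2.

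Macrophages and monocytes carry the same activating receptors, so their markers were summed per pool. Of the 15 markers Lyz2 and Ccr2, at 815 and 557 CPM in control, gave 52.7% and 36.2% of the sum, and Cd14 gave 5.97%, while Mertk and Cd163 were above 1 CPM in no pool. The sum was 1215 to 1796 CPM in control, 1234 to 1739 in XBP1ΔDC and 1006 to 1855 in XBP1ΔDCIRE1truncDC pools, with overlapping groups. The sum follows these 3 genes, which were also the only tested markers with a log2 fold change below 0 in XBP1ΔDC against control. The other 10 of the 13 tested had values above 0, with a median of 0.51 over the 13 beside 0.00 over all tested genes. Among them C1qa, C1qb and C1qc, which encode the chains of complement C1q, were at 0.81, 1.01 and 1.27 (adjusted p = 0.909, 0.734 and 0.655, edgeR). Their highest XBP1ΔDC values were 13.1, 22.4 and 17.1 CPM, beside XBP1ΔDC means of 6.47, 10.8 and 8.27 CPM, and the ranges overlapped those of control. Of the 13, 0 were called in this comparison by edgeR, DESeq2 or limma voom. At an unadjusted p under 0.05 in edgeR the number was 1, beside 7.62% of all tested genes. The median log2 fold change of the 13 was 0.04 in XBP1ΔDCIRE1truncDC against control. Leaving out the 3 most abundant genes, the other 12 markers summed to 149 CPM in XBP1ΔDC replicate 3, the pool with the highest Fcgr1, and to between 48.7 and 94.3 CPM in the remaining pools.

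The level of Fcgr2b rose with the log2 marker sum over the 11 pools (Pearson r = 0.78, permutation p = 0.00279, adjusted p = 0.0167, and Spearman rho = 0.61, permutation p = 0.0520, adjusted p = 0.131). Fcgr3 had r = -0.66 (permutation p = 0.0277, adjusted p = 0.0628) and rho = -0.75 (permutation p = 0.0112, adjusted p = 0.0671), and Fcgrt had r = 0.64 (permutation p = 0.0314, adjusted p = 0.0628) and rho = 0.58 (permutation p = 0.0656, adjusted p = 0.131). Fcgr1, Fcgr4 and Fcer1g had r of -0.29, -0.34 and 0.33 (permutation p = 0.384, 0.309 and 0.309, adjusted p = 0.384, 0.371 and 0.371). Their rho was -0.06, -0.25 and 0.25 (permutation p = 0.861, 0.450 and 0.450, adjusted p = 0.861, 0.540 and 0.540), and p-values were adjusted over the 6 genes. Without the 2 pools farthest from the median marker sum, r was 0.78 for Fcgr2b, -0.59 for Fcgr3, 0.58 for Fcgrt, -0.37 for Fcgr1, -0.23 for Fcgr4 and 0.44 for Fcer1g.

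The relation depends on how the markers are summarized. With the mean of the log2 level of each marker in place of the log2 sum, which gives scarce markers the same weight as Lyz2 and Ccr2, r was -0.31 for Fcgr2b, 0.13 for Fcgr3 and -0.44 for Fcgrt, and 0 of the 6 relations passed. As deviations from the genotype means, r was 0.84 for Fcgr2b (adjusted p = 0.00306, permutation test) and 0.82 for Fcgrt (adjusted p = 0.00390, permutation test). The 8 melanoma markers summed to 8.96 to 61.4 CPM in control, 12.2 to 65.7 in XBP1ΔDC and 8.74 to 11.02 in XBP1ΔDCIRE1truncDC pools, and the 9 neutrophil markers counted to at most 2.52 CPM in any pool. The part of other cells in the receptor levels was not tested.

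**Figure D4:**
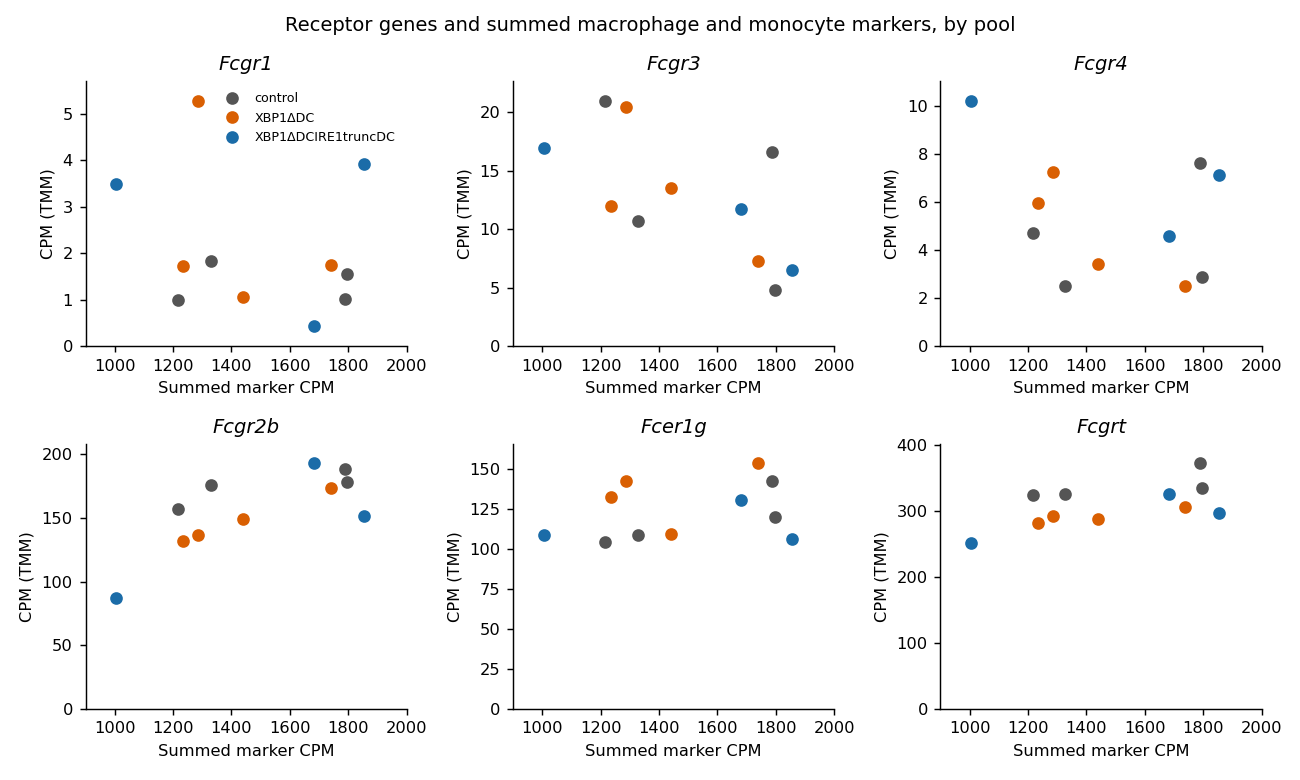
CPM of the 6 receptor genes other than Fcrla (vertical axes, each from 0) against the summed CPM of the 15 macrophage and monocyte markers (horizontal axes), 1 point per pool, colored by genotype. Fcgr2b is lowest, at 87.1 CPM, in the pool with the lowest marker sum of 1006 CPM, and the 3 genotypes are mixed along the horizontal axis.

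Among other Fc receptor relatives, 13 genes were counted and 3 passed the filter. Fcer1a, Ms4a2, Fcamr and Fcgbp, which serve IgE, IgM or mucosal antibody binding, had 0 counts in all pools. Fcrl1 was at 3.39 CPM and Trim21, a cytosolic antibody receptor, at 25.0 CPM in control. Of the 3 tested genes, edgeR, DESeq2 and limma voom called 0 in any comparison, where edgeR DEGs made up 0.493%, 0.21% and 0.0731% of all tested genes. At an unadjusted p under 0.05 the edgeR numbers were 1, 1 and 0 of 3, beside 7.62%, 11.2% and 5.29% of all tested genes. The remaining tested gene was Fcrlb, another intracellular Fc receptor-like gene and the nearest counted neighbor of Fcrla on one side.

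Fcrlb was read at 14.03, 13.03, 13.5 and 12.8 CPM in control, 8.33, 11.9, 9.76 and 9.55 in XBP1ΔDC, and 11.7, 6.34 and 10.7 in XBP1ΔDCIRE1truncDC pools. All pools of both deficient genotypes lay below all control pools, which held for 3.67% of tested genes in XBP1ΔDC and 5.81% in XBP1ΔDCIRE1truncDC. Its log2 fold change was -0.43 (SE 0.191, adjusted p = 0.638, edgeR) and -0.48 (SE 0.208, adjusted p = 0.411, edgeR), neither of which passed the test. Unlike the values of Fcrla, those of Fcrlb were not higher in XBP1ΔDCIRE1truncDC than in XBP1ΔDC pools, with a log2 fold change of -0.04 (SE 0.208).

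Fcrla lies at chr1:170917576-170927583 on the minus strand of GRCm38. In the same region lie Fcgr2b at chr1:170958617-170976547, Fcgr4 at chr1:171018920-171029761, Fcgr3 at chr1:171051174-171064935 and Fcer1g at chr1:171229572-171234365, while Fcgr1 is at chr3:96282909-96293969 and Fcgrt at chr7:45092990-45103851. Among 48 counted genes whose annotated start is within 1 Mb of that of Fcrla, 35 were tested, and 0 were called in any comparison by edgeR, DESeq2 or limma voom. At an unadjusted p under 0.05 the edgeR numbers were 3, 3 and 1 of 35, beside 7.62%, 11.2% and 5.29% of all tested genes. Their median log2 fold changes were 0.04, -0.05 and -0.02 in XBP1ΔDC against control, XBP1ΔDCIRE1truncDC against control and XBP1ΔDCIRE1truncDC against XBP1ΔDC, beside 0.00, -0.00 and 0.00 over all tested genes. The ER stress sensor gene Atf6, whose start is 59812 bases from that of Fcrla, was at 169 CPM in control, 146 in XBP1ΔDC and 146 in XBP1ΔDCIRE1truncDC pools, with overlapping groups. Its log2 fold change against control was -0.21 (SE 0.101, adjusted p = 0.678, edgeR) in XBP1ΔDC and -0.21 (SE 0.109, adjusted p = 0.509, edgeR) in XBP1ΔDCIRE1truncDC.

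Partners and signaling genes of the receptors were measured as whole lists. Of 10 partners and other users of the common chain 6 were tested and 0 called by any of the same tools (0, 1 and 0 at an unadjusted p under 0.05 in edgeR), among them B2m, the light chain of FcRn, at 2853 CPM and Tyrobp, another ITAM chain, at 240 CPM in control. Of 34 ITAM and ITIM signaling genes 33 were tested and 0 called in any comparison by any of these tools, with median log2 fold changes of 0.04, 0.02 and 0.04. At an unadjusted p under 0.05 the edgeR numbers were 2, 5 and 0 of 33, beside the same 7.62%, 11.2% and 5.29%. The kinase gene Syk, which binds phosphorylated ITAMs, was at 95.5, 96.5 and 96.4 CPM, and Inpp5d, the phosphatase SHIP1 recruited by FcγRIIB, was at 585, 539 and 574 CPM in control, XBP1ΔDC and XBP1ΔDCIRE1truncDC pools.

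The 10 genes whose log2 CPM followed that of Fcrla most closely over the 11 pools were ranked by Pearson r, as a description without a test. They were Itgb2 (r = 0.973), Slc1a5 (0.961), Fam134c (0.950), Cnpy3 (0.949), Stim2 (0.933), Bloc1s1 (0.930), Ttyh3 (0.926), Pomgnt1 (0.924), Notch4 (0.923) and Leprot (0.922). All 10 were lower in every XBP1ΔDC pool than in every control pool and higher in every XBP1ΔDCIRE1truncDC pool than in every XBP1ΔDC pool, a pattern the ranking itself selects. Itgb2, the common β2 integrin chain, had 831 ± 20.9 CPM (SD, n = 4) in control, 267 ± 39.4 (SD, n = 4) in XBP1ΔDC and 916 ± 84.9 (SD, n = 3) in XBP1ΔDCIRE1truncDC pools. Bloc1s1, a subunit of lysosome-positioning complexes, had 34.7 ± 4.22 CPM (SD, n = 4), 18.9 ± 3.58 (SD, n = 4) and 37.4 ± 4.04 (SD, n = 3) in the same order. By Spearman rho, a measure chosen after seeing the data, 2 of these 10 genes, Stim2 and Ttyh3, stayed among the first 10.

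**Figure D5:**
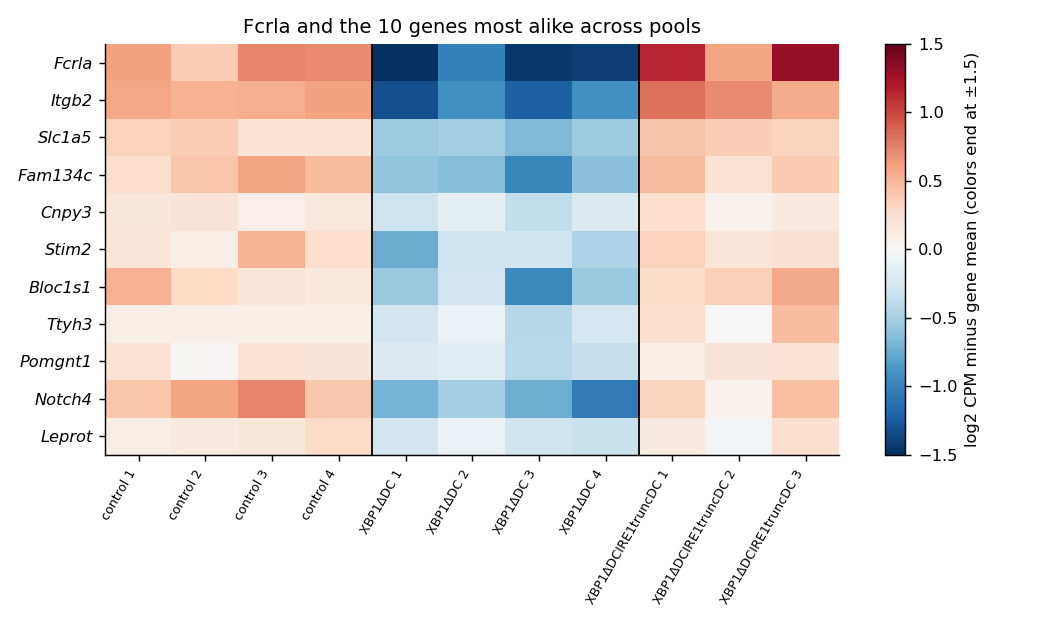
Log2 CPM minus the mean of each gene for Fcrla and the 10 genes with the highest Pearson r to it (rows) in the 11 pools (columns), with color from blue (below the mean) to red (above) and black lines between genotypes. The 4 XBP1ΔDC columns are below the other columns for each gene, and the contrast is widest for Fcrla and Itgb2.

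None of the other receptor genes followed this pattern closely, with r to Fcrla of -0.21 for Fcgr1, -0.16 for Fcgr3, 0.13 for Fcgr4, 0.21 for Fcgr2b, -0.46 for Fcer1g and 0.37 for Fcgrt over the 11 pools.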

How the data were processed

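The authors sequenced total RNA of sorted cDC1 pools after SMART-seq v4 amplification as single-end reads, trimmed them with Trimmomatic 0.39, checked them with FastQC 0.11.8, aligned them with STAR 2.7.3a and counted them with HTSeqCount. The deposited table holds raw counts per gene, without normalization, and the labels name the build mm10. A second deposited table of values normalized with limma 3.42.2 was not used. The counting annotation and its strand setting are not given in the sources used here.

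Pools were grouped by the genotype in their labels. Replicates are separate pools of mice, and no pair of pools in a group agreed within sampling noise. The filter kept a gene that exceeded 1 CPM in 4 or more pools, and edgeR 4.0.16 was then run (TMM, quasi-likelihood test, 1 fit of 11 pools, Benjamini-Hochberg over 10951 genes). The study states this filter with a larger number of genes kept, so the genes tested here are not exactly those of the study. The reason for the difference was not tested. DEGs needed an adjusted p below 0.05 together with a change of more than 1.5-fold. Levels per kb use union exon lengths of GENCODE vM21, where 23376 of the 24421 symbols matched. Log2 CPM used a prior count of 2. For the ratio and the marker relations, permutation tests were run, the latter with 100000 resamples, on log2 CPM without a pseudocount (0.1 CPM was added for the mean of log2 markers). The fit was first tested on simulated counts with known changes. Alternatives were DESeq2 1.42.0, limma voom (limma 3.58.1), other scalings and filters, pairs of groups only, a replicate block and leaving out each pool.

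The genes, lists and tests were chosen with earlier results of these data known. The genes named include the 7 receptor genes, Xbp1 and Ern1, the 10 genes most like Fcrla, list genes with an adjusted p under 0.05, marker genes at 0 or most abundant, and the nearest genes to Fcrla. Others were named outside this rule, among them C1qa, C1qb, C1qc, Trim21, B2m, Tyrobp, Syk, Inpp5d and Atf6.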

Additional observations from a re-analysis of the deposited data

Results flagged for a closer look

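Fcgr1 in XBP1ΔDC replicate 3, at 5.28 CPM, stood apart from the other 3 pools of its group, at 1.05 to 1.74 CPM, with a gap to the nearest pool of 0.837 of the range of the group against a critical value of 0.829 for 4 pools. Among the 18 groups of 4 pools examined for the receptor genes, Fcrlb and the receptor ratio, it was the only one to do so. Chance gives about 1 in 20 for each group examined, so 1 flag among 18 groups is not unusual. The same pool had the highest sum of the 12 less abundant macrophage and monocyte markers, 149 CPM. Their part in the Fcgr1 value was not tested.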

How the results depend on the processing

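Under 19 other settings of the fit, 0 of the 6 receptor genes other than Fcrla were called in any comparison, and the lowest adjusted p of a receptor gene was 0.226. A call rule without the fold limit, chosen after seeing the data, also gave 0. Fcrla kept its direction in each of these fits, at -2.10 to -1.90 in XBP1ΔDC against control, 0.28 to 0.61 in XBP1ΔDCIRE1truncDC against control and 2.25 to 2.58 in XBP1ΔDCIRE1truncDC against XBP1ΔDC. The sign of small log2 fold changes turned when a pool was left out, within -0.28 to 0.32 for Fcgr3 and -0.16 to 0.51 for Fcgr4 in XBP1ΔDC against control. In XBP1ΔDCIRE1truncDC against control they lay within -0.54 to 0.13 for Fcgr3 and -0.15 to 0.052 for Fcer1g. In XBP1ΔDCIRE1truncDC against XBP1ΔDC they lay within -0.33 to 0.79 for Fcgr1, -0.54 to 0.11 for Fcgr3, -0.31 to 0.22 for Fcgr2b and -0.092 to 0.090 for Fcgrt. Fcgr1 in the last comparison was -0.25 with limma voom, and Fcgrt was 0.0015 with DESeq2, 0.0013 with its size factors and 0.00074 without the filter on low counts. The receptor ratio ranged over 0.05 to 0.70, 0.04 to 1.04 and -0.33 to 0.68 when a pool was left out, in the order XBP1ΔDC against control, XBP1ΔDCIRE1truncDC against control, and XBP1ΔDCIRE1truncDC against XBP1ΔDC. With the mean of log2 markers 0 relations passed, and r was 0.59, 0.13, 0.032, -0.31, -0.31 and -0.44 for Fcgr1, Fcgr3, Fcgr4, Fcgr2b, Fcer1g and Fcgrt. With deviations from group means 2 passed. The cause of these shifts was not tested.

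Same-numbered pools did not deviate together (correlations of 0.04 to 0.13, -0.02 to 0.03 and -0.26 to -0.14 in the same order of comparisons), so the numbers were not treated as pairs. With a replicate block 0 of the 6 genes were called, Fcgr3 was at 0.027 in XBP1ΔDCIRE1truncDC against control, Fcgr1 was at -0.12 in XBP1ΔDCIRE1truncDC against XBP1ΔDC, and the DEGs over all genes numbered 40, 11 and 3 beside 54, 23 and 8. DESeq2 gave 75, 94 and 36 DEGs, and fits of the groups compared alone gave 54, 15 and 6. Leaving out a pool gave 37 to 57, 12 to 23 and 4 to 10. At 11 to 138 counts per pool, the 95% interval of the Fcgr1 difference in XBP1ΔDC against control was -0.53 to 2.25 on the log2 scale.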
